A study of Mus musculus with 12 samples.

Results

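The 8 genes described here encode the receptors for interferons and the kinases that work beneath them: Ifnar1 and Ifnar2, Ifngr1 and Ifngr2, and Jak1, Jak2, Jak3 and Tyk2. They were taken by symbol from the deposited gene table, which lists 16353 mouse genes, and all 8 were found. The libraries held messenger RNA of KB5 CD8 T cells, which bear a transgenic receptor for an antigen of the C57BL/6 strain. Sorting on that receptor and CD8 from CBA/J spleens, to 95% purity per the labels, took place 12 h after treatment. Activated cells came from mice injected intravenously with 10 M (mega) C57BL/6 splenocytes. Tolerized cells came from mice given these splenocytes and, intraperitoneally, 0.5 mg of anti-CD154, a blocking antibody to CD40 ligand on T cells. Inflamed cells came from mice given the splenocytes, 0.5 mg of anti-CD154 and 100 µg of lipopolysaccharide (LPS). Naive cells came from untreated mice. Each group had 3 libraries, all from the 1 transgenic receptor, and the 9 libraries of the first 3 groups are called antigen-exposed.

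Type I interferons bind a receptor of Ifnar1 and Ifnar2, which hold the kinases Tyk2 and Jak1. Interferon gamma binds a receptor of Ifngr1 and Ifngr2, which hold Jak1 and Jak2. Jak3 pairs with the common gamma chain of the receptors for IL-2, IL-7, IL-15 and their relatives and acts there with Jak1. The kinases phosphorylate STAT proteins, which then switch on interferon response genes. In mouse Th1 cells the Ifngr2 chain is known to be downregulated, which limits their response to interferon gamma.

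Promoter windows from RefSeq (build GRCm38.p6, 250 bases before to 50 bases after a start site, 300 bases in all) were at hand for all 8 genes. They were searched on both strands for the gamma-activated sequence bound by STAT dimers (TTCNNNGAA), the core of the interferon-stimulated response element (GAAANNGAA, or TTCNNTTTC on the other strand), the GC box (GGGCGG or CCGCCC) and the core bound by NFAT factors (GGAAA or TTTCC). The first motif was present in the windows of Ifnar1 and Ifnar2, 2 of 8, against 7.15% of the windows of 16312 genes in the count table and 8.3% of all 32851 windows. The second was in Jak3 alone, 1 of 8, against 7.44% and 8.56%. The GC box was in all 8, against 55.6% and 35.7%, and the NFAT core was in 5 of 8, against 59% and 61.3%. These are matches of letters and not binding sites. The 2 windows with the STAT motif are printed here with that of Ifngr2, the gene with the lowest level per length, to show how the neighbouring receptor genes on chromosome 16 differ. They lie at chr16:91484965-91485264 for Ifnar1, chr16:91372533-91372832 for Ifnar2 and chr16:91546809-91547108 for Ifngr2, all on the plus strand, and are printed 5′ to 3′ with the match to TTCNNNGAA in capitals.
Ifnar1: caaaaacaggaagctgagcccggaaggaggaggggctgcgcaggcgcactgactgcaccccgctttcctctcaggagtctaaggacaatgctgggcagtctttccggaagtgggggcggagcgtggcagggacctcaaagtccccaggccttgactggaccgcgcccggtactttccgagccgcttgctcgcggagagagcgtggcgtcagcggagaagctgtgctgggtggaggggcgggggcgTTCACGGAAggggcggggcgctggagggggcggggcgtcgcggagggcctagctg
Ifnar2: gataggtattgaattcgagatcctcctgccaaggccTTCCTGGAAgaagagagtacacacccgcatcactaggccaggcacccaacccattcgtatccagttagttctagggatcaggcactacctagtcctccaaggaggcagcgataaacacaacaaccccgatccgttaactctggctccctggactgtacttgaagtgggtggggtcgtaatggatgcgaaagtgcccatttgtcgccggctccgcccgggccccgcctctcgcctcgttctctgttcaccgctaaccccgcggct
Ifngr2: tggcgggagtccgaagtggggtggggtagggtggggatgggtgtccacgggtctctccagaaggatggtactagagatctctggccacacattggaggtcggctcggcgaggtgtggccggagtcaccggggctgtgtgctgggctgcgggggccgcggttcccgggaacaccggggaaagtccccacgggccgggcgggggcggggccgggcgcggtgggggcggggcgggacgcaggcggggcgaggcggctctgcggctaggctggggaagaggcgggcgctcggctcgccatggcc
The match in Ifnar1, TTCACGGAA, spans the start site of the window, which lies 183 bases inside the gene's annotated span. The match in Ifnar2, TTCCTGGAA, ends 206 bases before the start. Neither overlaps a match to another motif. The Ifngr2 window was 74.3% G or C with 31 CpG dinucleotides, against 68.3% and 26 for Ifnar1 and 57% and 18 for Ifnar2. Over the genes in the count table the medians were 59% and 17. The remaining 5 windows were 54.3% (Jak3) to 81% (Jak2) G or C.

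The libraries held 29.3 M to 84.5 M reads assigned to genes, and the 8 genes had between 72 reads (Ifngr2 in a tolerized library) and 109813 reads (Jak1 in a naive library). Levels are counts per M reads (CPM) after TMM scaling, a correction for differences in library composition. Changes are differences of log2(CPM + 1) ± SE from limma with 3 libraries a group, and a change was called at a Benjamini-Hochberg adjusted p under 0.05 over 12499 tested genes. Whether each library came from its own mouse is not stated, so the p-values reflect a spread between samples that may be technical. The 8 T cell markers were present in all groups, summing to 2442 to 3829 CPM in activated, 2811 to 3618 in tolerized, 3612 to 3884 in inflamed and 5206 to 6390 in naive libraries. Markers of other spleen cells were detected too, and most were higher in naive libraries. The 12 macrophage markers summed to 72.1 to 840 CPM in activated, 55.7 to 165 in tolerized, 15.8 to 451 in inflamed and 944 to 2408 in naive libraries, with none at 0 in a whole group. The 7 B cell markers summed to 94.8 to 115, 75.9 to 163, 83.9 to 125 and 327 to 422 CPM in the same order, and the 8 erythroid markers to 38.9 to 294, 48.3 to 152, 19.5 to 118 and 959 to 2306 CPM. The 7 dendritic cell markers summed to 2.25 to 11.1, 4.18 to 36.9, 1.66 to 7.52 and 14.8 to 33.6 CPM. The 7 neutrophil markers summed to 10.4 to 192 CPM in inflamed libraries, 17.6 CPM or less in naive and 12.5 CPM or less elsewhere, with Elane at 0 in activated and tolerized libraries. The 6 NK cell markers, among them Eomes and Nkg7 of effector CD8 T cells, summed to 367 to 653 CPM in antigen-exposed and 87.0 to 104 CPM in naive libraries, with Klra8 at 0 in activated ones. The NK markers did not move together: of 4 tested, 2 were called higher and 2 lower in each antigen-exposed group against naive cells. Over all genes 35.3% to 37.4% were higher and 35.3% to 35.9% lower.

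Ifnar1, the type I receptor chain that carries Tyk2, had 43.5, 72.3 and 111 CPM in activated, 41.8, 64.0 and 110 CPM in tolerized and 50.6, 69.7 and 46.4 CPM in inflamed libraries, against 182, 188 and 189 CPM in naive ones. The antigen-exposed libraries all lay below the naive ones and spread widely, by a factor of 2.55 between the lowest and highest activated and 2.62 between the lowest and highest tolerized library, against 1.04 among naive ones. Ifnar1 fell, with log2 changes of -1.39 ± 0.36 in activated, -1.47 ± 0.36 in tolerized and -1.75 ± 0.36 in inflamed cells against naive cells (limma adjusted p = 0.00534, 0.00357 and 0.00123). Ifnar2, its partner chain, which holds Jak1, had 30.6, 38.3 and 46.7 CPM in activated, 28.5, 39.2 and 55.9 CPM in tolerized and 39.4, 39.1 and 33.6 CPM in inflamed libraries. Its naive libraries had 69.8, 80.9 and 73.0 CPM, again above all others. Ifnar2 fell in all 3 as well, with changes of -0.95 ± 0.22, -0.89 ± 0.22 and -0.98 ± 0.22 in activated, tolerized and inflamed cells (limma adjusted p = 0.00255, 0.00346 and 0.00192). In bulk RNA fewer cells of a type and less RNA per cell cannot be told apart.

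Ifngr1, the chain that binds interferon gamma, had 30.2, 33.1 and 45.2 CPM in activated, 24.1, 33.5 and 56.0 CPM in tolerized and 37.6, 45.8 and 30.2 CPM in inflamed libraries. Naive libraries had 81.6, 89.8 and 74.3 CPM, with no overlap. Ifngr1 fell against naive cells, with changes of -1.17 ± 0.27 in activated, -1.17 ± 0.27 in tolerized and -1.11 ± 0.27 in inflamed cells (limma adjusted p = 0.00274, 0.0025 and 0.00345). Ifngr2, the second chain, which carries Jak2 and is needed for signalling, had 3.74, 8.07 and 14.6 CPM in activated, 2.74, 2.88 and 2.50 CPM in tolerized and 6.39, 8.98 and 5.12 CPM in inflamed libraries, against 37.6, 38.9 and 37.4 CPM in naive ones. The tolerized libraries were alike and lowest, below every activated and inflamed library. Its fall was the largest of the 8 genes, with changes of -2.15 ± 0.35 in activated, -3.40 ± 0.35 in tolerized and -2.34 ± 0.35 in inflamed cells (limma adjusted p = 0.000285, 8.62e-06 and 0.000133). Its mean in tolerized cells was 0.0713 of the naive mean, in activated cells 0.232 and in inflamed cells 0.180. Ifngr2 fell in each of the 25 other fits of every comparison with naive cells, with changes of -1.68 to -2.57 in activated, -2.48 to -3.82 in tolerized and -1.87 to -2.75 in inflamed cells.

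**Figure D1:**
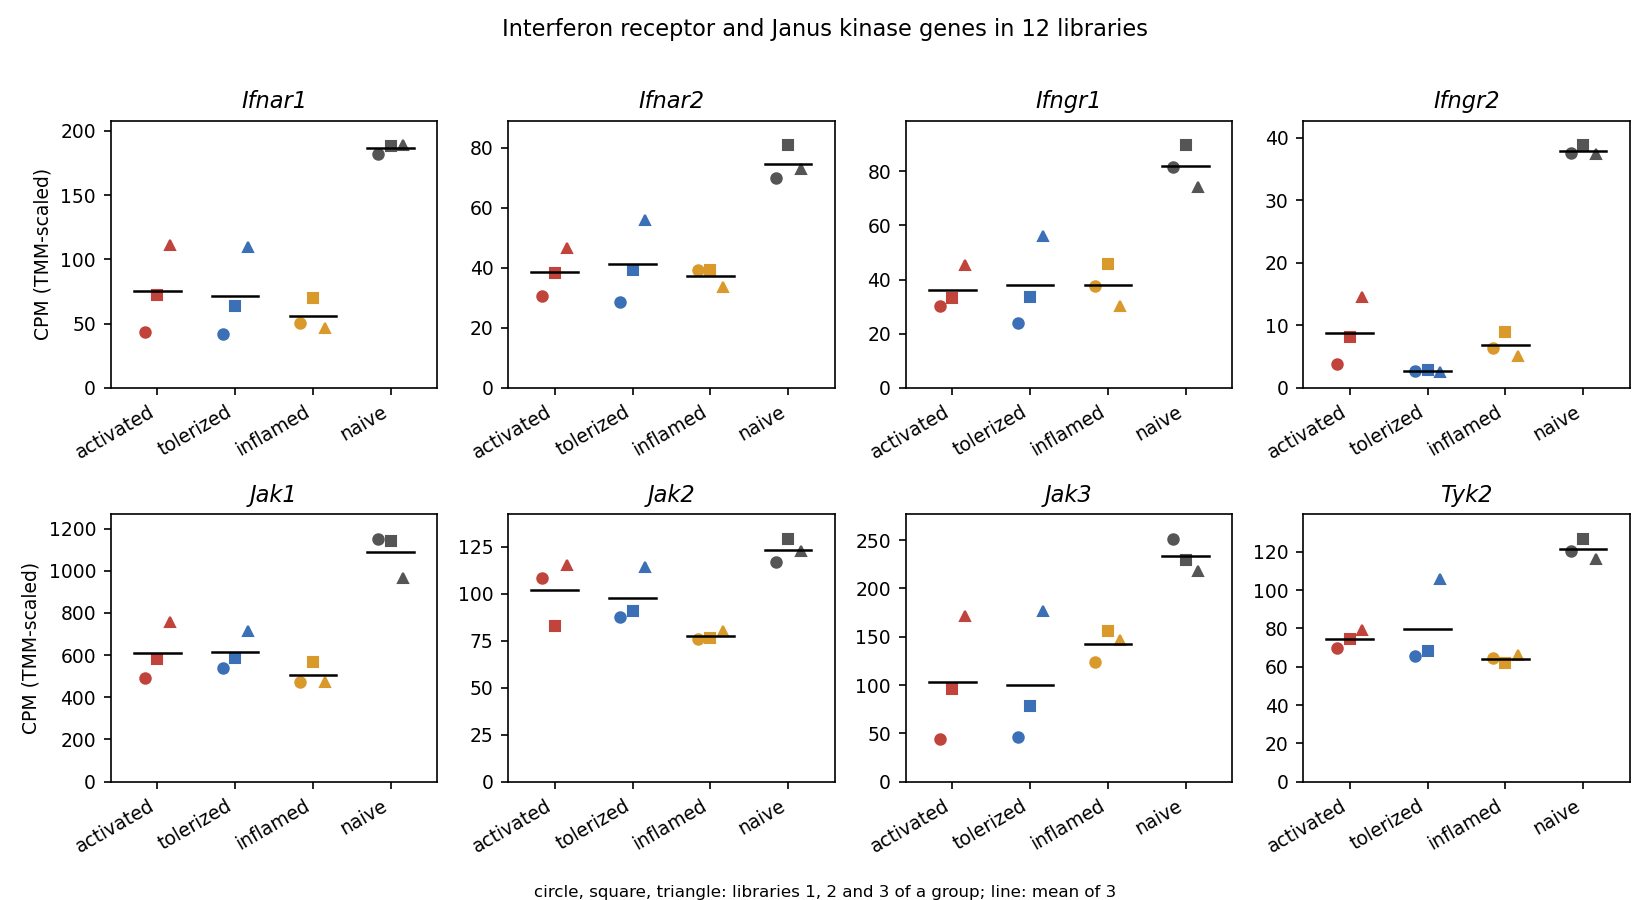
CPM of the 8 genes (y axes, TMM-scaled, each from 0) in the 3 libraries of each group (x axes), with the mean as a line. Every antigen-exposed library lay below every naive one for all 8 genes. The share of all genes separated in this way was not counted, and 35.3% to 35.9% of all genes were called lower against naive cells. Ifngr2 was at 2.50 to 14.6 CPM there, against 37.4 to 38.9 CPM in naive libraries.

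Jak1, the kinase shared by both interferon receptors and by the gamma chain receptors, had 492, 583 and 756 CPM in activated, 541, 588 and 714 CPM in tolerized and 473, 567 and 471 CPM in inflamed libraries, against 1153, 1144 and 967 CPM in naive ones. All antigen-exposed values lay below the naive range. Jak1 fell, with changes of -0.85 ± 0.16 in activated, -0.83 ± 0.16 in tolerized and -1.11 ± 0.16 in inflamed cells (limma adjusted p = 0.00088, 0.000922 and 0.000124). Tyk2, the kinase of Ifnar1 and of the IL-12 receptor, had 69.6, 74.6 and 79.1 CPM in activated, 65.6, 68.4 and 106 CPM in tolerized and 64.4, 62.0 and 65.9 CPM in inflamed libraries. Naive libraries had 121, 127 and 116 CPM, and only tolerized replicate 3 came near them. Tyk2 fell too, with changes of -0.70 ± 0.15, -0.63 ± 0.15 and -0.91 ± 0.15 in activated, tolerized and inflamed cells (limma adjusted p = 0.00189, 0.00317 and 0.000299).

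Jak2, which acts at Ifngr2 and at the IL-12 receptor, was the least changed member. It had 109, 82.8 and 115 CPM in activated, 87.5, 90.7 and 114 CPM in tolerized and 76.0, 76.7 and 80.2 CPM in inflamed libraries, against 117, 129 and 123 CPM in naive ones. The highest activated and tolerized libraries nearly met the lowest naive one, while the inflamed libraries stood well apart. Jak2 fell in inflamed cells (change -0.66 ± 0.13, limma adjusted p = 0.000982) and in tolerized cells (change -0.34 ± 0.13, limma adjusted p = 0.034). The tolerized call was lost in 9 of 25 other fits, among them the one with macrophage markers as a covariate and those without tolerized replicate 1 or 2 or naive replicate 2 or 3, with changes of -0.26 to -0.46 over the fits that left out a library. In activated cells the change was -0.28 ± 0.13, with a 95% interval of -0.57 to 0.01, and was not called (limma adjusted p = 0.0761). It was called with 3 other scalings and without activated replicate 3 or tolerized replicate 3.

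Jak3, the kinase of the common gamma chain, was uneven between libraries. It had 44.1, 95.7 and 171 CPM in activated and 46.3, 77.8 and 176 CPM in tolerized libraries, a spread of 3.88 and 3.81 times within each group. Inflamed libraries had 124, 156 and 147 CPM and naive libraries 252, 229 and 218 CPM, each within 1.26 times. Jak3 fell against naive cells, with changes of -1.36 ± 0.49 in activated and -1.42 ± 0.49 in tolerized cells (limma adjusted p = 0.0277 and 0.0219). The activated call was lost without activated replicate 1 or 2 or any naive library, with changes from -0.83 to -1.82 and adjusted p up to 0.127. The tolerized call was lost without tolerized replicate 1 or 2 or naive replicate 1, with changes from -0.97 to -1.94 and adjusted p up to 0.0989. In inflamed cells the change of Jak3 was -0.71 ± 0.49 (95% interval -1.79 to 0.37), which was not called (limma adjusted p = 0.212), although no inflamed library overlapped the naive ones. It was called in a fit of these 2 groups alone (limma adjusted p = 0.000643), where the wide spread of Jak3 in the other groups did not enter, and with macrophage markers as a covariate (-1.84, limma adjusted p = 0.0175).

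Set beside each other, 7 of the 8 genes fell in activated cells against naive cells, all but Jak2, and 0 rose. In this comparison 35.3% of all tested genes were lower and 35.3% higher. All 8 fell in tolerized cells, where 35.9% of all genes were lower and 37.4% higher. In inflamed cells 7 fell, all but Jak3, where 35.5% of all genes were lower and 36.9% higher. The median log2 change of the 8 genes was -1.06, -1.03 and -1.04 in activated, tolerized and inflamed cells, against -0.04, -0.01 and -0.01 over all tested genes. A fall of this size was not particular to them. The 8 T cell markers had medians of -1.03, -1.02 and -0.96, with 8, 7 and 5 of them called lower. These 3 comparisons share the naive libraries. With library size in place of TMM scaling, the median of all genes moved by -0.22, -0.24 and -0.27 and that of the members stood at -1.34, -1.34 and -1.37. The share of called genes that were higher was then 39.1%, 39.6% and 38.6%, and with upper-quartile scaling, which moved the median by -0.16, -0.18 and -0.17, it was 41.1%, 41.8% and 42.5%. A scaling factor moves all genes of a library nearly alike. The gap between the medians of the members and of all genes was thus not tested by these scalings.

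**Figure D2:**
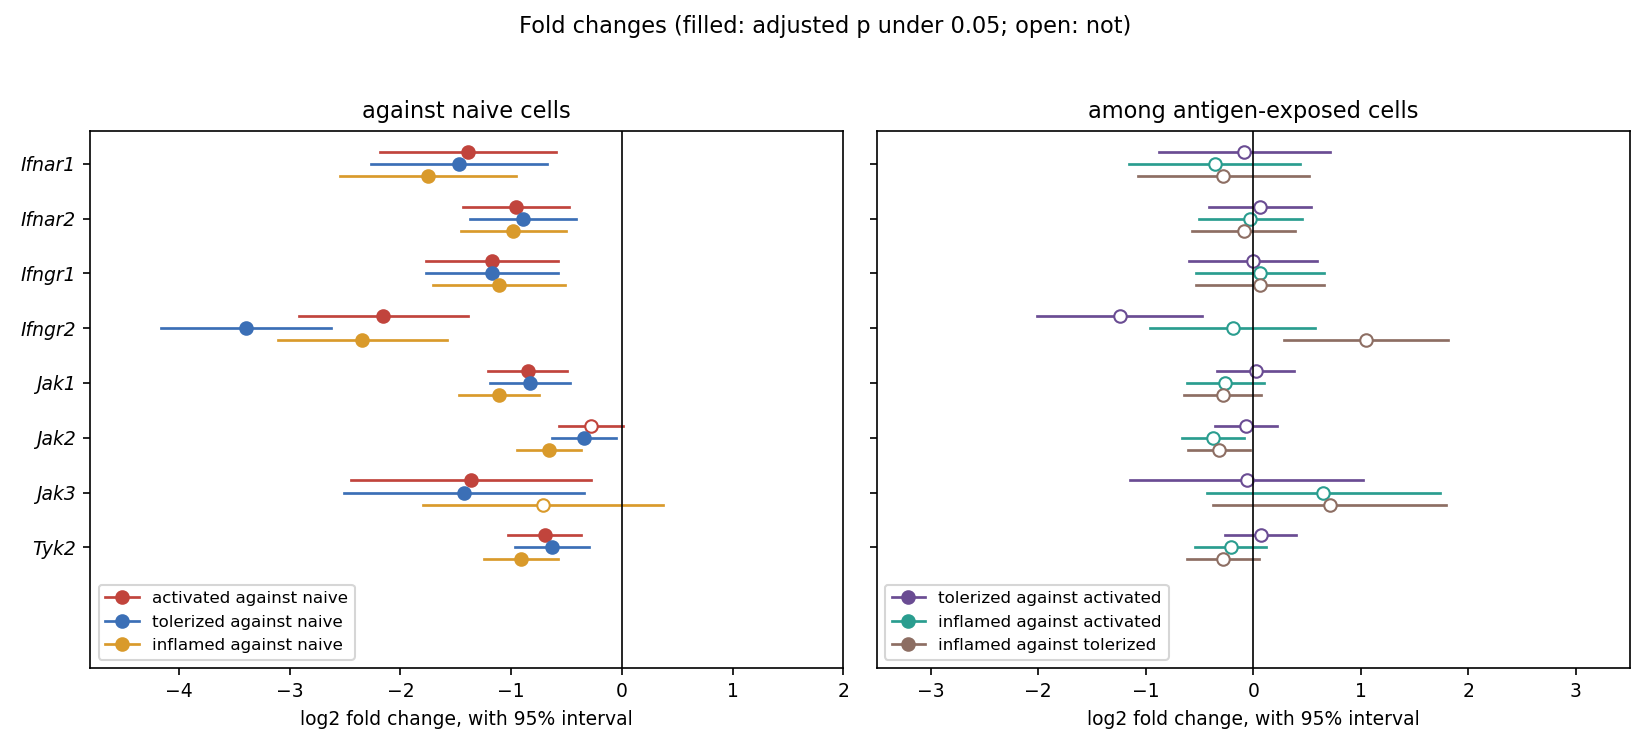
Log2 fold changes of the 8 genes with 95% intervals (x axes), against naive cells on the left and among antigen-exposed cells on the right, filled where the adjusted p was under 0.05. Against naive cells every estimate is below 0, from -0.28 (Jak2, activated) to -3.40 (Ifngr2, tolerized), and among antigen-exposed cells no gene was called.

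The macrophage markers moved with these falls, at 15.8 to 840 CPM in antigen-exposed and 944 to 2408 CPM in naive libraries. With these markers as a covariate the fall of Jak2 in tolerized cells was not called (-0.44, limma adjusted p = 0.076) and that of Jak3 in inflamed cells was. Every other call of the 8 genes against naive cells was kept. Under it the changes of Ifngr2 were -2.46 in activated, -3.82 in tolerized and -2.75 in inflamed cells, those of Ifngr1 were -1.32, -1.38 and -1.31 and those of Tyk2 were -0.86, -0.85 and -1.12. Without naive replicates 2 and 3, the libraries richest in macrophage transcripts, 1 naive library was left, assumed to vary like the other groups. Then 4 of 8 genes were called in activated cells (Ifngr1, Ifngr2, Jak1 and Tyk2), 3 in tolerized cells (Ifngr1, Ifngr2 and Jak1) and 5 in inflamed cells (Ifnar1, Ifngr2, Jak1, Jak2 and Tyk2). The changes themselves moved little: Ifnar1 stood at -1.35, -1.44 and -1.71 in activated, tolerized and inflamed cells, Ifngr2 at -2.13, -3.37 and -2.33 and Jak1 at -0.94, -0.92 and -1.20. The naive library left, with macrophage markers at 944 CPM, still lay above every antigen-exposed library. B cell and erythroid markers, also higher in naive libraries, entered no fit. The part of other cells in the falls was thus not tested.

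Among the antigen-exposed groups the comparisons asked what costimulation blockade, and LPS on top of it, changed after the same antigen. None of the 8 genes was called. In tolerized against activated cells 0% of all genes were higher and 0% lower by limma, with 531 genes at an unadjusted p under 0.05, of which 1 was a member. That gene was Ifngr2, with 2.74, 2.88 and 2.50 CPM in tolerized and 3.74, 8.07 and 14.6 CPM in activated libraries. Its change was -1.24 ± 0.35 (95% interval -2.01 to -0.48) and its limma adjusted p was 0.961. The libraries of the 2 groups did not overlap for Ifngr2, and for the 7 others they did. How many of all genes were separated in this way was not counted. Ifnar2 differed by 0.06 (-0.41 to 0.54), Ifngr1 by 0.00 (-0.59 to 0.60) and Jak1 by 0.02 (-0.34 to 0.38), while the interval of Jak3 was wide, at -1.14 to 1.02.

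In inflamed against activated cells 1.54% of all genes were higher and 0.384% lower, 240 in all, or 68 when the replicate numbers were fitted as pairs in the 2 groups alone. By limma 1250 of the 12499 tested genes had an unadjusted p under 0.05. Of the 8 genes only Jak2 did, with 76.0, 76.7 and 80.2 CPM in inflamed against 109, 82.8 and 115 CPM in activated libraries, a change of -0.38 ± 0.13 (limma adjusted p = 0.279). Libraries of the 2 groups did not overlap for Jak2 and Tyk2, and for the remaining members they did. Jak3 was higher in the mean, at 142 ± 16.4 CPM in inflamed and 104 ± 63.8 CPM in activated cells (SD, n = 3), which the spread between activated libraries covers (change 0.65, 95% interval -0.43 to 1.73). In inflamed against tolerized cells 1.66% of all genes were higher and 1.12% lower. Here 1837 genes had an unadjusted p under 0.05 by limma, of which 2 were members, Ifngr2 and Jak2. Ifngr2 had 6.39, 8.98 and 5.12 CPM in inflamed against 2.74, 2.88 and 2.50 CPM in tolerized libraries, without overlap, a change of 1.05 ± 0.35 that was not called (limma adjusted p = 0.16). It was called without activated replicate 1 (limma adjusted p = 0.0357). Jak2 differed by -0.32 ± 0.13 (limma adjusted p = 0.286), also without overlap. The remaining 6 genes overlapped and had limma adjusted p of 0.452 or more. How many of all genes were separated in these 2 comparisons was not counted.

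Ratios between partner genes within a library do not depend on scaling between libraries. They were compared between the 9 antigen-exposed and 3 naive libraries by an exact 2-sided permutation test (220 placements, smallest possible p = 0.00455), adjusted over 4 ratios. The test takes the 9 antigen-exposed libraries as independent, although same-numbered activated and tolerized, and activated and inflamed, libraries deviated together from their group means. The log2 ratio of Ifngr2 over Ifngr1 was -2.23 ± 0.71 in activated, -3.72 ± 0.69 in tolerized and -2.49 ± 0.12 in inflamed libraries, against -1.11 ± 0.11 in naive ones (SD, n = 3 each). All 9 antigen-exposed libraries, at -4.48 to -1.63, lay below the naive ones, and the difference of -1.71 passed the exact test (p = 0.0136, adjusted p = 0.0182). Ifngr2, the chain that carries Jak2, was thus lower relative to Ifngr1, the binding chain, in antigen-exposed cells. For the type I receptor the ratio of Ifnar2 over Ifnar1 was -0.89 ± 0.37, -0.74 ± 0.21 and -0.55 ± 0.25 in activated, tolerized and inflamed libraries, against -1.32 ± 0.09 in naive ones (SD, n = 3 each). The difference of 0.59 passed the exact test as well (p = 0.00909, adjusted p = 0.0182), although activated replicate 3, at -1.25, fell within the naive range.

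The ratio of Jak2 over Tyk2 was 0.45 ± 0.26 in activated, 0.31 ± 0.17 in tolerized and 0.28 ± 0.03 in inflamed libraries, against 0.02 ± 0.06 in naive ones (SD, n = 3 each), a difference of 0.32 (exact p = 0.0136, adjusted p = 0.0182). Every antigen-exposed library was above the naive ones, and without naive replicate 1 the difference was 0.29 (exact p = 0.0545). Jak3 over Jak1 did not pass (difference -0.24, exact p = 0.595). Its values lay on both sides of the naive mean of -2.22: -2.74 ± 0.68 in activated, -2.83 ± 0.77 in tolerized and -1.82 ± 0.13 in inflamed libraries (SD, n = 3 each). With each antigen-exposed group alone against naive libraries no ratio could pass, since 3 against 3 cannot give a p under 0.1.

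**Figure D3:**
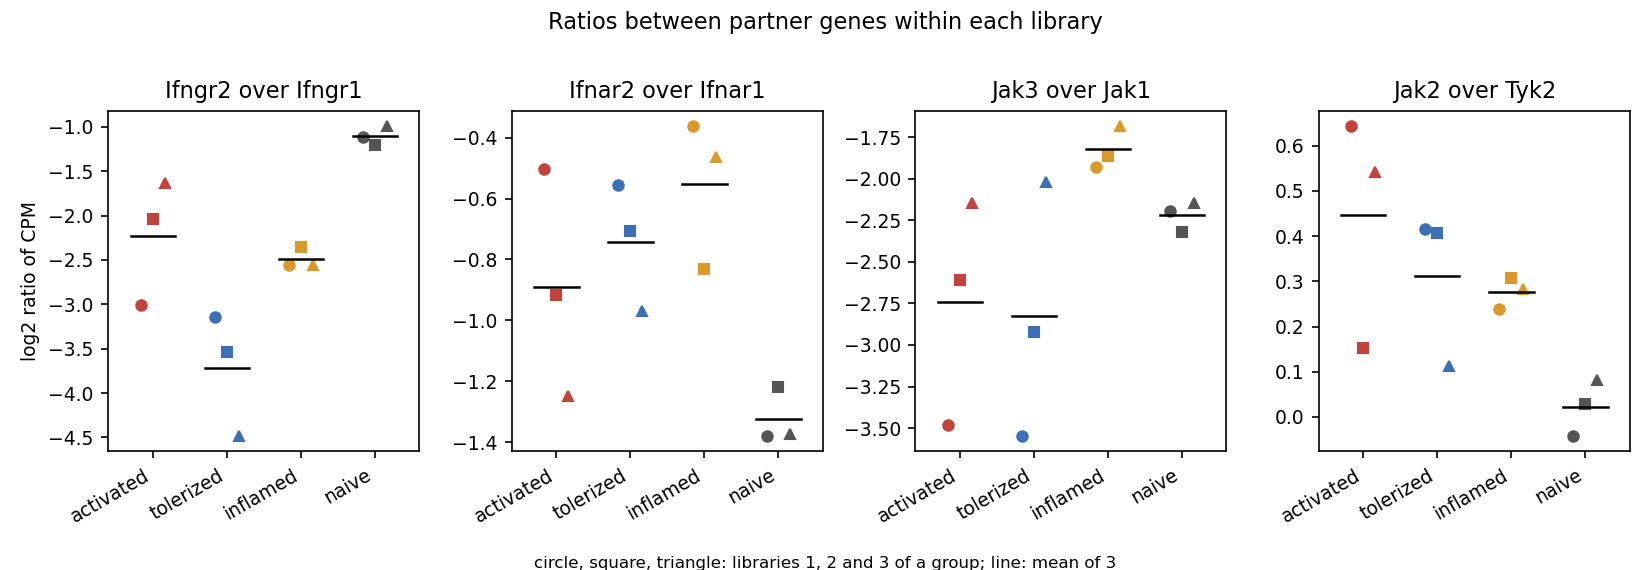
Log2 ratios of CPM between partner genes (y axes) in the 3 libraries of each group (x axes), with the mean as a line. Ifngr2 over Ifngr1 was lowest in tolerized libraries, at a mean of -3.72 against -1.11 in naive ones, and Jak3 over Jak1 was at -1.93 to -1.68 in inflamed libraries.

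Levels of different genes can be compared only per length, here as CPM per kilobase of the exon length that the table gives. Jak1 was the highest of the 8 in every group, at 115 ± 25.3 in activated, 116 ± 16.8 in tolerized and 95.0 ± 10.3 in inflamed cells, against 205 ± 19.8 CPM per kilobase in naive cells (SD, n = 3 each). Its libraries overlapped those of no other member. Jak3 had the next highest mean in each group, at 26.3, 25.4 and 36.2 in activated, tolerized and inflamed cells and 59.2 CPM per kilobase in naive cells. In activated replicate 1 Jak3 was at 11.2, below Jak2 at 21.6, and in tolerized replicate 1 at 11.8, below Jak2 at 17.4. Ifngr2 was the lowest in each group, at 4.26, 1.31 and 3.30 in activated, tolerized and inflamed cells and 18.3 CPM per kilobase in naive cells.

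The order between these ends was less firm. In naive cells Jak3 was followed by Ifngr1 at 39.0 CPM per kilobase, and this by Ifnar1, Tyk2, Jak2 and Ifnar2 at 26.6 to 24.5 with overlapping libraries. In inflamed cells Jak3 and Ifngr1 were followed by Jak2, Tyk2, Ifnar2 and Ifnar1, at 15.4 to 7.92 CPM per kilobase. In activated cells neighbours from Jak3 down overlapped throughout, and in tolerized cells all but Ifnar1 and Ifngr2, at 10.2 and 1.31 CPM per kilobase, did. Ifnar1 was thus number 7 of 8 in all antigen-exposed groups and number 4 of 8 in naive cells. Of the summed kinase level per length, Jak1 made up 65.3%, 66.3% and 59.4% in activated, tolerized and inflamed cells, against 65.3% in naive cells. Jak2 made up 11.8% ± 3.1, 11.1% ± 0.9 and 9.71% ± 0.84, against 7.84% ± 0.74 in naive cells (SD, n = 3 each). Jak3 made up 14.0% ± 5.7, 13.4% ± 6.0 and 22.6% ± 1.4, against 18.9% ± 0.88 in naive cells (SD, n = 3 each).

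**Figure D4:**
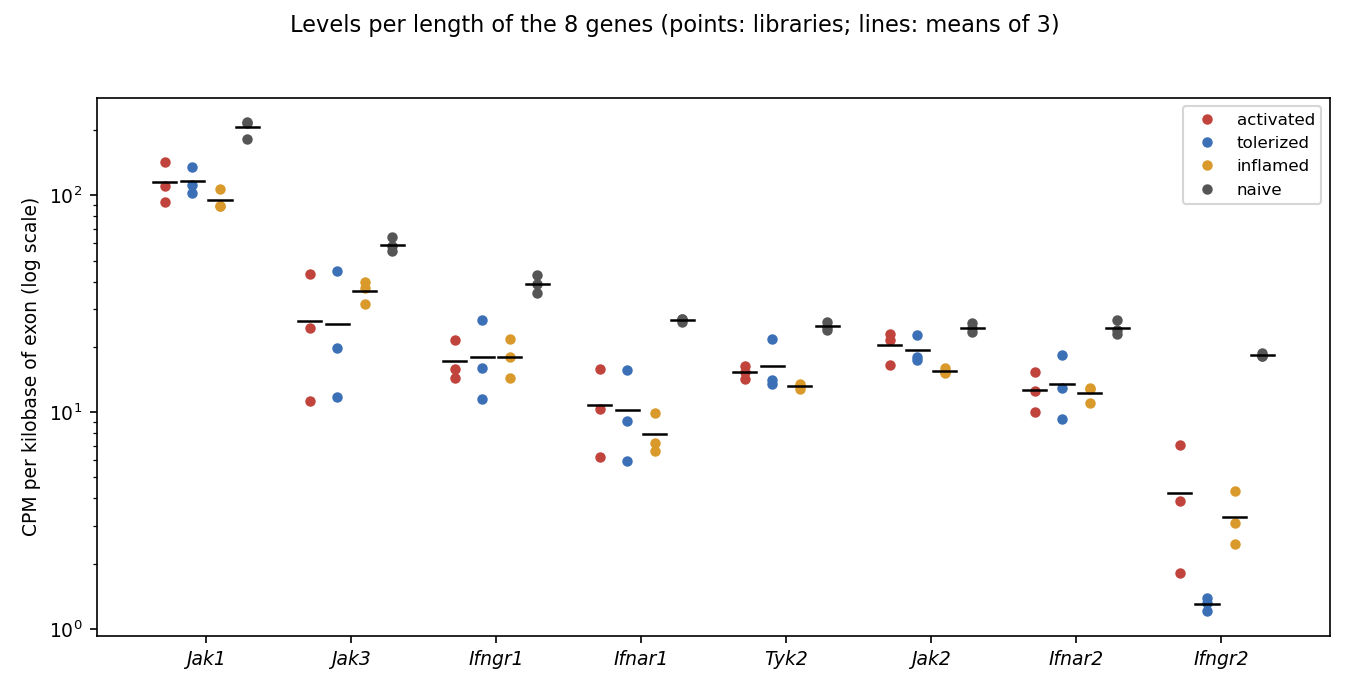
CPM per kilobase of exon (y axis, log scale) of the 8 genes, ordered by their naive mean (x axis), with a point per library and lines for the means of 3. Jak1 stood at 88.9 or more in every library, and Ifngr2 was at 1.21 to 7.06 in antigen-exposed libraries, against 18.1 to 18.8 in naive ones.

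Of the 8 genes, 3 lie close together on chromosome 16, in the order Ifnar2, Ifnar1 and Ifngr2, between bases 91372783 and 91564007 of GRCm38. Il10rb, which encodes a chain of the IL-10 and lambda interferon receptors, lies between Ifnar2 and Ifnar1. These are the 4 genes of the table among 9 annotated in this stretch of 191 kb. Il10rb had 36.1 ± 4.63 CPM in activated, 36.5 ± 9.82 CPM in tolerized and 32.7 ± 3.30 CPM in inflamed cells, against 54.8 ± 7.11 CPM in naive cells (SD, n = 3 each). It fell, with changes of -0.59 ± 0.19, -0.60 ± 0.19 and -0.72 ± 0.19 (limma adjusted p = 0.015, 0.0131 and 0.00472). The other 3 are members given above, and changes in activated cells ran from -0.59 (Il10rb) to -2.15 (Ifngr2). Over all genes 35.3% to 35.9% were lower against naive cells, and a fall shared by the region was not tested. Ifngr1 lies on chromosome 10, Jak1 on chromosome 4, Jak2 on chromosome 19, Jak3 on chromosome 8 and Tyk2 on chromosome 9.

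In the table, 2 members overlap another gene, and since the sources used here do not say whether counting used strand, their reads cannot be told apart with certainty. Raver2 meets the end of Jak1 on chromosome 4 and had 0.442% to 2.61% of the CPM of Jak1 in antigen-exposed libraries, against 3.97% to 4.56% in naive ones. Insl3 (chromosome 8, 71689252 to 71690577) lies inside the annotated span of Jak3 (71676383 to 71690577) and ends at the same base. It had 5.58% to 8.72% of the CPM of Jak3 in antigen-exposed libraries, against 9.36% to 10.5% in naive ones.

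The ligands are the first of the other pathway genes. Of 20 interferon genes listed, 5 were in the table and 2, Ifng and Ifnk, were tested. Ifng, the gene for interferon gamma, had 128, 64.8 and 71.0 CPM in activated, 105, 82.1 and 95.5 CPM in tolerized and 84.2, 66.5 and 65.3 CPM in inflamed libraries, against 0.196, 0.177 and 1.36 CPM in naive ones. It rose by 5.83 ± 0.30, 5.99 ± 0.30 and 5.60 ± 0.30 in these 3 groups (limma adjusted p = 1.43e-07, 1.03e-07 and 1.32e-07), in the same libraries in which both receptor chains for it fell. Ifna4 and Ifnab, of the type I interferons, were near 0. Ifna4 averaged 0.0253 CPM in tolerized libraries and was at 0 elsewhere, and Ifnab averaged 0.0339 CPM or less in each group. Ifnk, which encodes interferon kappa, another type I interferon, averaged 1.10, 0.535 and 0.555 CPM in activated, tolerized and inflamed cells, against 2.59 CPM in naive cells. It fell in tolerized and inflamed cells (limma adjusted p = 0.0116 and 0.00852) and stood at -0.79 in activated cells (limma adjusted p = 0.0847).

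Of 6 STAT genes and Irf9, 4 rose and 3 fell in both activated and tolerized cells against naive cells, with a median log2 change of 0.39 and 0.34. In inflamed cells 2 rose and 1 fell (median 0.06). Of all tested genes, 35.3%, 37.4% and 36.9% were higher and 35.3%, 35.9% and 35.5% lower in activated, tolerized and inflamed cells against naive cells, with medians of -0.04, -0.01 and -0.01. Irf9, the DNA-binding subunit of the type I complex, had 25.7, 39.4 and 53.2 CPM in activated, 28.2, 25.5 and 53.1 CPM in tolerized and 120, 105 and 84.6 CPM in inflamed libraries, against 125, 124 and 105 CPM in naive ones. Stat2, which joins it there, and Irf9 fell in activated cells (changes -1.22 ± 0.29 and -1.61 ± 0.29) and in tolerized cells (changes -1.37 ± 0.29 and -1.77 ± 0.29) (limma adjusted p = 0.00361 or less). In inflamed cells they stood at -0.31 and -0.21 and were not called (limma adjusted p = 0.363 and 0.543). Irf9 rose in inflamed cells against activated cells by 1.41 ± 0.29 and against tolerized cells by 1.57 ± 0.29 (limma adjusted p = 0.0347 and 0.0169). Stat5a, which Jak3 receptors use, rose by 1.01 ± 0.10, 1.0 ± 0.10 and 0.64 ± 0.10 in activated, tolerized and inflamed cells against naive cells, and Stat5b fell, with changes of -0.75 ± 0.10, -0.81 ± 0.10 and -0.79 ± 0.10 (limma adjusted p = 0.000268 or less). Stat3 rose in inflamed cells against activated cells, by 0.80 ± 0.10 (limma adjusted p = 0.00194).

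Of 24 other receptor chains tested that signal through Janus kinases, 4 rose and 15 fell in activated, 4 rose and 14 fell in tolerized and 6 rose and 12 fell in inflamed cells against naive cells. The median log2 changes were -0.60, -0.67 and -0.48, and the shares over all genes were 35.3% to 37.4% higher and 35.3% to 35.9% lower. Macrophage, B cell and erythroid markers were also lower in antigen-exposed libraries, and their part in these falls was not tested. Epor, the erythropoietin receptor, which fell in all 3 groups, is itself an erythroid marker. The chains that rose include Il2ra, the IL-2 receptor alpha chain, at 252 ± 79.6, 260 ± 58.8 and 536 ± 125 CPM in activated, tolerized and inflamed cells, against 2.81 ± 0.316 CPM in naive cells (SD, n = 3 each). Il12rb1, a chain of the IL-12 receptor that carries Tyk2, had 18.5, 22.0 and 19.0 CPM in activated, 22.8, 21.2 and 21.5 CPM in tolerized and 88.5, 85.8 and 72.6 CPM in inflamed libraries, against 7.63, 7.02 and 6.93 CPM in naive ones. It rose in all 3 groups against naive cells, and in inflamed cells by 2.0 ± 0.11 against activated and 1.86 ± 0.11 against tolerized cells (limma adjusted p = 1.55e-05 and 2.11e-05). Il12rb2, the chain that carries Jak2, rose in inflamed cells by 1.88 ± 0.15 and 1.80 ± 0.15 in the same comparisons (limma adjusted p = 0.000125 and 0.000169), with 7.92 ± 0.836 CPM in inflamed, 1.42 ± 0.233 CPM in activated and 1.56 ± 0.162 CPM in tolerized cells (SD, n = 3 each). Tyk2 and Jak2 themselves were not called in either comparison.

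Of 19 negative regulators of the kinases tested, 7 rose and 6 fell in activated, 9 rose and 6 fell in tolerized and 11 rose and 4 fell in inflamed cells against naive cells (median 0.17, 0.23 and 0.46). In activated cells these shares are near those of all genes, 35.3% higher and 35.3% lower. The whole tested set stood at 37.4% higher and 35.9% lower for tolerized cells, and at 36.9% and 35.5% for inflamed cells. Cish, a feedback inhibitor induced by Stat5, had 62.4, 37.3 and 35.0 CPM in activated, 48.8, 26.2 and 43.2 CPM in tolerized and 174, 118 and 175 CPM in inflamed libraries, against 5.72, 5.21 and 4.30 CPM in naive ones, and rose in all 3 groups. Socs1, which inhibits the kinases at the interferon receptors, had 16.8, 16.3 and 14.3 CPM in activated and 14.1, 9.26 and 9.90 CPM in tolerized libraries, against 27.0, 27.3 and 22.7 CPM in naive ones. It fell in both (limma adjusted p = 0.00244 and 5.07e-05), and inflamed libraries, with 52.9, 56.7 and 51.9 CPM, lay above all others. Usp18, which displaces Jak1 from Ifnar2, had 107, 82.6 and 54.8 CPM in inflamed libraries, against 2.30, 4.18 and 6.92 CPM in activated, 1.44, 1.81 and 12.6 CPM in tolerized and 15.9, 19.0 and 12.0 CPM in naive ones. Against activated cells Socs1 rose in inflamed cells by 1.71 ± 0.15 and Usp18 by 3.95 ± 0.58 (limma adjusted p = 0.000225 and 0.00553). In that comparison 5 of the 19 regulators rose and 0 fell, and likewise against tolerized cells. Over all genes 1.54% and 1.66% were higher in these 2 comparisons.

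Type I interferon-stimulated genes, downstream of Ifnar1 and Ifnar2, fell in activated cells against naive cells in 31 of 36 cases and in tolerized cells in 28 of 36, and 0 rose. The median log2 changes were -1.68 and -1.71. Of all genes, 35.3% and 35.9% were lower and 35.3% and 37.4% higher in these 2 comparisons. The macrophage markers, highest in naive libraries, moved with the falls of this list, and their part was not tested. In inflamed cells 16 of 36 rose against naive cells and 0 fell (median 0.88), and against activated and tolerized cells 23 of 36 rose and 0 fell (median 2.44 in both). Over all genes 36.9% were higher in inflamed against naive cells. Against activated and tolerized cells 1.54% and 1.66% were. Isg15, a ubiquitin-like interferon-induced protein, had 248, 161 and 145 CPM in inflamed libraries, against 15.5, 15 and 13.3 CPM in activated, 12.5, 12.2 and 18.8 CPM in tolerized and 9.83, 11.5 and 9.76 CPM in naive ones. Inflamed libraries thus had the highest Isg15 while their Ifnar1, at 50.6, 69.7 and 46.4 CPM, stood below all naive libraries. Oasl1 and Bst2 also rose in inflamed cells, by 2.33 ± 0.29 and 2.23 ± 0.20 against naive cells (limma adjusted p = 3.6e-05 and 2.87e-06). The list's mean log2(CPM + 1) was 5.22 to 6.19 in inflamed libraries. Neutrophil markers also reached their highest sum there, 192 CPM, and their part in these differences was not tested.

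Interferon gamma response genes, downstream of Ifngr1 and Ifngr2, fell in 22 of 30 cases in activated, 24 in tolerized and 14 in inflamed cells against naive cells, and 4, 3 and 6 rose (median -1.59, -1.82 and -0.65). Over all genes 35.3% to 35.9% were lower and 35.3% to 37.4% higher. The macrophage, B cell and erythroid markers were likewise lower in antigen-exposed libraries, and their part in these falls was not tested. The class I gene H2-K1 fell, with changes of -0.91 ± 0.12 in activated and -1.10 ± 0.12 in tolerized cells (limma adjusted p = 8.75e-05 and 1.75e-05). Irf8 and Cd274, the PD-L1 gene, went the other way, by 2.65 ± 0.25 and 1.40 ± 0.12 in activated cells (limma adjusted p = 5.6e-06 and 2.13e-06). Tgtp1, a T cell GTPase, had 39.1, 74.2 and 159 CPM in activated, 17.1, 23.2 and 31.8 CPM in tolerized and 235, 243 and 138 CPM in inflamed libraries, against 473, 482 and 305 CPM in naive ones. Its change in tolerized against activated cells was -1.69 ± 0.44 and was not called (limma adjusted p = 0.957), as for Ifngr2. In inflamed cells 2 of 30 rose against activated cells, Irgm1 by 2.03 ± 0.22 and Igtp by 1.76 ± 0.31 (limma adjusted p = 0.00101 and 0.0154), and 9 rose and 1 fell against tolerized cells. Over all genes 1.54% were higher and 0.384% lower against activated cells, and 1.66% and 1.12% against tolerized cells. None of the genes in these lists was called in tolerized against activated cells.

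**Figure D5:**
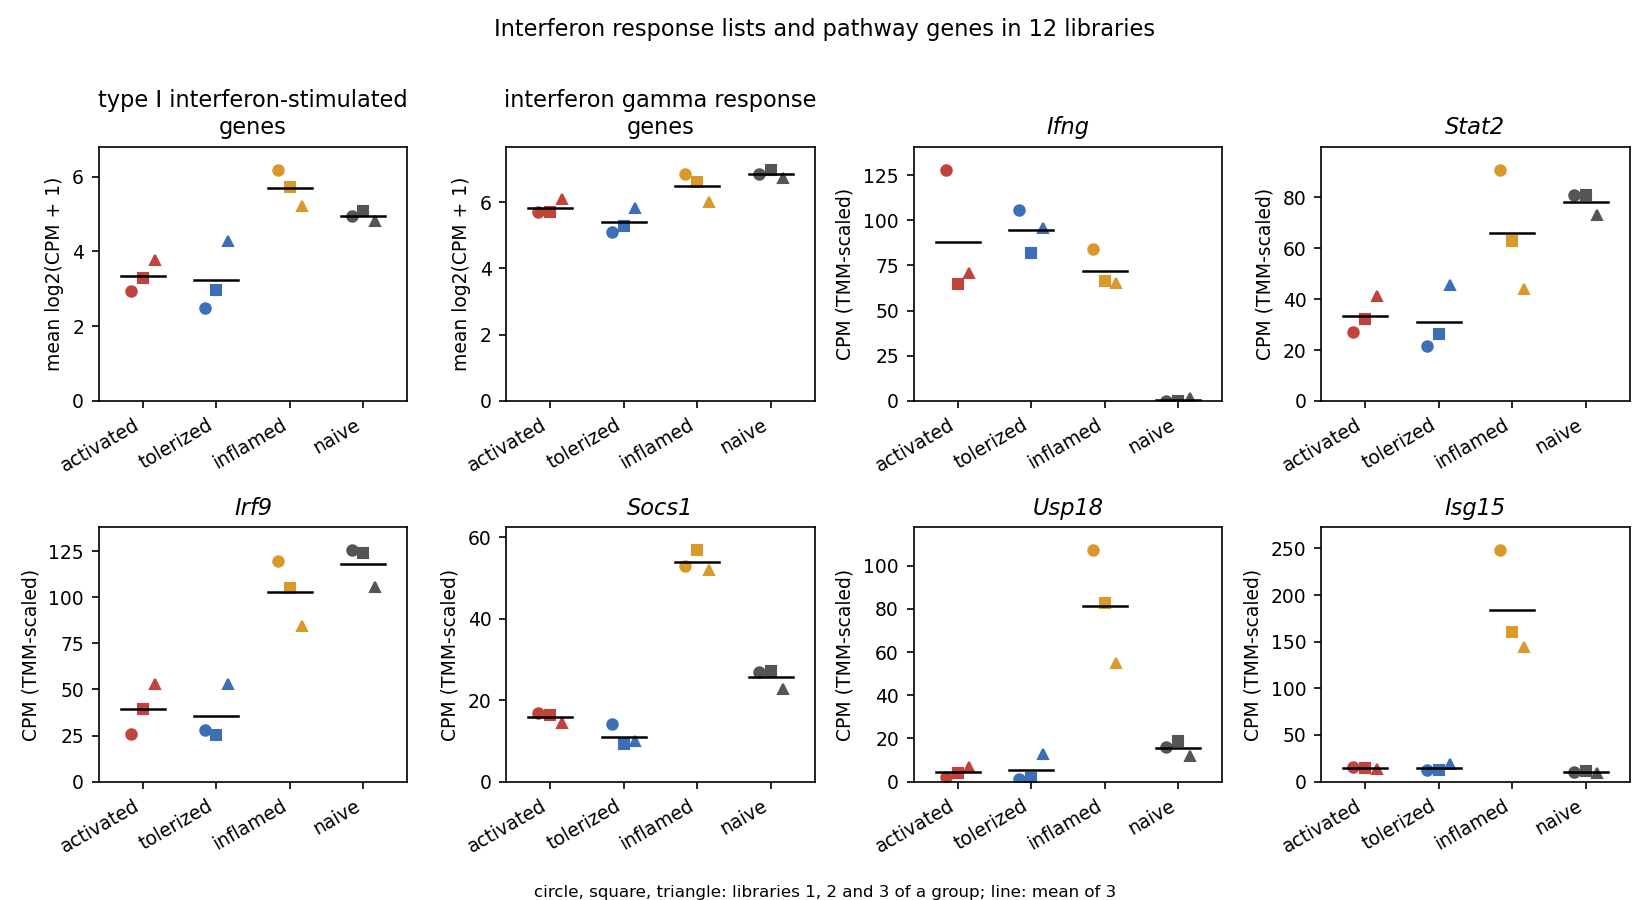
Mean log2(CPM + 1) of the 36 type I interferon-stimulated and 30 interferon gamma response genes, and CPM of Ifng, Stat2, Irf9, Socs1, Usp18 and Isg15 (y axes, from 0), in the 3 libraries of each group (x axes), with the mean as a line. Socs1 was at 51.9 to 56.7 CPM and Usp18 at 54.8 to 107 CPM in inflamed libraries, above all other libraries, and Ifng was at 1.36 CPM or less in naive libraries only.

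Genes among those whose log2 levels followed each member most closely over the 12 libraries were drawn from 7950 genes that averaged 10 CPM or more. Pearson r is given as a description, since the naive libraries stand apart and all values share libraries and scaling. For Ifnar1 they were Add1 and Arhgap4 (r = 0.996 each), and over the 9 antigen-exposed libraries alone r was 0.991 and 0.986. For Ifnar2 they were Txndc16, Ech1 and Cyb5 (0.987 to 0.988) and for Ifngr1 Fam49a, Cd47 and Man2a1 (0.987 to 0.988). Ifngr2 was most like Igfbp4 (0.986), Wnt5b and Itgae (0.982 each), and Jak1 was close to Stk10 (0.992) and Hectd3 (0.991). Jak3 was most like Insl3 (0.980), the gene that overlaps it, then Pydc3 (0.975) and Samd9l (0.974). Tyk2 was most like Mtmr14, Inpp4a and St3gal1 (0.978 to 0.983). Jak2 had the loosest partners, Ext2, Mtmr14 and Tshz1, at 0.903 to 0.915, and Mtmr14 was thus close to both Jak2 and Tyk2.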

How the data were processed

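The deposited table held 1 whole-number read count per gene and library, unscaled and with commas inside long numbers, and an exon length for each gene (median 2690 bases). Per the submitters' processing notes, TopHat2, bedtools, DESeq and the builds mm10 and GRCm38 were used, and their roles and versions are not given in the sources used here. The extraction protocol in the labels names embryonic fibroblasts, at odds with the sorted T cells named elsewhere in them. Of the counts from 1 to 20, 55.6% to 64.4% were even, against 49.3% to 50.8% of those over 1000, so read pairs may have been counted as 2. Reads are not independent molecules, and intervals cover the spread between libraries only.

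Commas were removed and counts scaled to CPM with TMM factors (0.897 to 1.22, trimming 30% of M and 5% of A). Genes with at least 0.258 CPM (10 reads at the median library size) in 3 libraries and 15 reads in all were kept, 12499 of 16353, and all 8 members passed. Limma-trend (limma 3.58.1, R 4.3.3) was fitted to log2(CPM + 1) of all 12 libraries with a mean per group, which understates changes of low genes. The plan named a count test, but the values with their commas read as text in the unit check, so limma was used throughout. It was tried first on simulated reads with few changed genes and the same spread for all genes, unlike these data. A call needed a Benjamini-Hochberg adjusted p under 0.05 in the comparison. Within-group correlations across genes were 0.961 to 0.994.

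The members and the 13 lists (199 genes, 180 in the table, 4 of them by gene ID, 168 tested) were chosen with earlier results of these data known, and the promoter motifs with the sequences in view. Named list genes were the 4 with the smallest adjusted p per comparison and Ifng, Stat2, Irf9, Socs1 and Usp18. Some genes that the rules pick are not reported here. Genes named beyond that rule, Il10rb, Raver2, Insl3, Eomes, Nkg7, Elane, Klra8, Ifna4 and Ifnab, were chosen after their values were seen, and so were repeats of a rule gene in other comparisons. Coordinates and promoters are from RefSeq (GRCm38.p6), which matched 16313 genes.

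Replicate numbers are shared between groups, with no label that says what they mark. Deviations of same-numbered libraries from their group means correlated over 0.1 in all 3 pairs for tolerized with activated (0.19 to 0.60) and inflamed with activated libraries (0.15 to 0.64), so these were taken as paired by the data. In the other 4 comparisons they were not. Of the paired comparisons, tolerized with activated had 5 of 6 libraries closest to their own number, and inflamed with activated only 2 of 6. The main fit left these pairs out, and changes and adjusted p come from it unless another fit is named. Calls of list genes with the pairs fitted are not given here. Alternatives were 3 other scalings, limma-voom, 2 filters, pseudocounts of 0.1 and 5, smaller fits, replicate blocks, a macrophage covariate and each library left out. A fit without the 2 naive libraries richest in macrophage transcripts was added after the values were seen.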

Additional observations from a re-analysis of the deposited data

How the results depend on the processing

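Of 1224 refitted changes of the 8 genes, 1188 kept their side of the threshold, 27 calls were lost, 9 were gained and 0 turned round. Among those 1188, 37 changes that were called in neither fit had the other sign. The calls that moved are given with their genes. Over leave-one-out fits the count of called genes ran from 0 to 60 for tolerized against activated cells (60 without tolerized replicate 1, 0 with all libraries), from 107 to 328 for inflamed against activated cells and from 157 to 540 for inflamed against tolerized cells. The members called in the last comparison numbered 0 to 1. Inflamed against activated cells had 240 called genes, but 101 with only the 2 groups in the fit, 144 with the antigen-exposed libraries alone, 519 with the macrophage covariate and 145 without the macrophage-rich naive libraries. Inflamed against tolerized cells had 348, but 158, 195, 590 and 195 in the same settings. With the replicate numbers as a replicate block in 2-group fits these counts were 68 and 0, and the block changed no call of the 8 genes in the 2 paired comparisons. Among the other comparisons it lost 1 call that the 2-group fit without it made, of Jak3 in activated against naive cells (-1.34, limma adjusted p = 0.0518 with the block). Jak3 in inflamed against naive cells was called in 2-group fits with and without it (limma adjusted p = 0.00439 and 0.000643). In these comparisons the correlations of same-numbered libraries ran from -0.46 to 0.02 against naive libraries, where 0 of 6 libraries in each comparison were closest to their own number, and from -0.17 to 0.27 for inflamed with tolerized libraries, where 2 of 6 were. Without the macrophage-rich naive libraries 5779 genes were called in activated against naive cells in place of 8831, and 4 and 3 of the 8 genes in activated and tolerized cells. The cause was not tested. With each antigen-exposed group on its own against naive libraries, the log2 ratio of Ifngr2 over Ifngr1 differed by -1.12 in activated, -2.62 in tolerized and -1.38 in inflamed libraries. Ifnar2 over Ifnar1 differed by 0.43, 0.58 and 0.77 and Jak2 over Tyk2 by 0.42, 0.29 and 0.25, with no p under 0.1 possible. Over leave-one-out tests Jak2 over Tyk2 ran from 0.28 to 0.35. The count tests planned for columns that pass as counts were not run.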
